A study of Mus musculus with 4 samples.

Results

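The polyamine genes examined here encode the enzymes that make and break down putrescine, spermidine and spermine, together with the proteins that set the stability of ornithine decarboxylase. They were listed by name as Odc1, Amd1, Srm, Sms, Oaz1, Oaz2, Azin1, Sat1, Paox and Smox, and each was read from the brightest probe set that the array annotation assigns to that symbol alone. Of the 10 genes, 7 were measured in this way, among 22180 genes on the array. Amd1 and Paox had no probe set under their own symbol, and the probe set of Sms is also listed for a pseudogene, so that no value is given for these 3 genes.

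RNA was prepared from the prostate of male C57BL/6 mice, a common inbred strain, with no transgene named in the labels, and was hybridized to Affymetrix whole-transcript arrays, with 1 array per mouse. The vasectomy group held 2 mice in which the vas deferens had been interrupted, and the sham group held 2 mice with sham surgery. The labels give surgery at 16 weeks and harvest at 24 weeks of age, although another label counts the 24 weeks from surgery, and the methods give a younger age at surgery. The tissue is the lateral prostate in the labels and the dorsolateral prostate in the methods. Values were RMA signals taken as log2, so that a difference of 1 is a 2-fold change, and the SD refers to the 2 mice of a group. Since the tissue was profiled in bulk, fewer cells of a type and less RNA per cell cannot be told apart.

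Polyamines are small positively charged molecules that bind nucleic acids and are needed for growth, and the prostate is known as an organ that makes and secretes large amounts of spermine into seminal fluid. Ornithine decarboxylase makes putrescine, and spermidine synthase and spermine synthase add aminopropyl groups that S-adenosylmethionine decarboxylase provides. Antizymes bind ornithine decarboxylase and send it to the proteasome, and antizyme inhibitor releases it. Much of this control acts on translation and protein stability, which an array of transcripts does not measure.

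None of the 7 polyamine genes showed a difference between vasectomized and sham mice that passed the test against the spread between mice. Sat1 and Oaz2 were close to level across the 4 arrays, and the other 5 genes ranged over 0.29 to 0.57. Oaz1, Azin1 and Smox had a higher mean in vasectomized mice, Odc1, Srm and Oaz2 had a lower one, and the means of Sat1 were equal. The largest difference was 0.21 (1.16-fold, Oaz1). By limma, 0 of the 7 genes passed an adjusted p under 0.05 over all genes, where the share of all 22180 genes that passed was also 0%. At an unadjusted p under 0.05 the counts were 0 of 7 by limma, against 2.04% of all genes, and 0 of 7 by the methods' t-test, against 3.38%. The median absolute difference was 0.095 over the 7 genes and 0.115 over all genes.

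**Figure D1:**
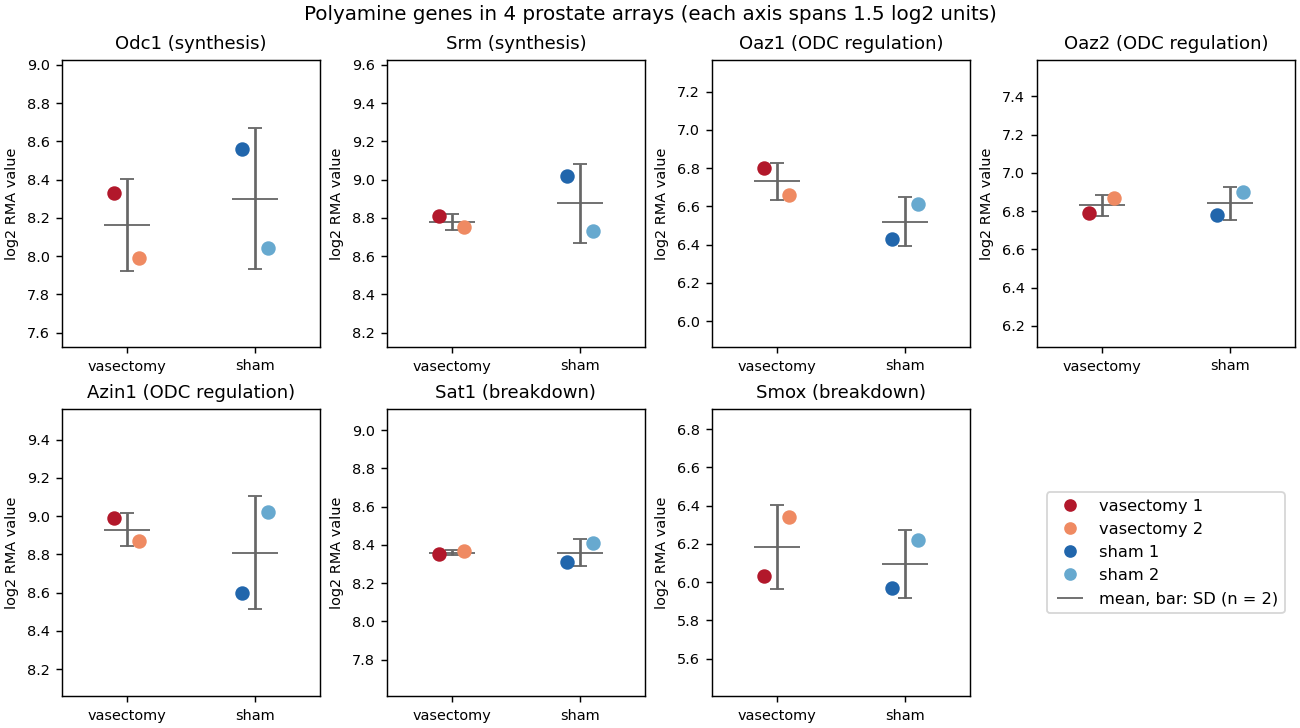
Log2 value of each polyamine gene (vertical axis, spanning 1.5 log2 units in every panel) in vasectomized and sham mice, with 1 point per array and the mean and SD (n = 2) in gray. The points of the 2 groups interleave in every panel except that of Oaz1, in which both vasectomy arrays, at 6.80 and 6.66, lie above both sham arrays, at 6.43 and 6.61.

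The 2 measured enzymes of synthesis both had a lower mean after vasectomy. Odc1, which encodes ornithine decarboxylase, the rate-limiting enzyme of the pathway, was at 8.33 and 7.99 in vasectomy mice 1 and 2 and at 8.56 and 8.04 in sham mice 1 and 2. In each group the first mouse was the higher one, and the groups overlapped. The means were 8.16 ± 0.24 (SD, n = 2) and 8.30 ± 0.37 (SD, n = 2), and the difference of -0.14 had a standard error of 0.24 (limma, adjusted p = 0.9997). Srm, which encodes spermidine synthase, was at 8.81 and 8.75 after vasectomy and at 9.02 and 8.73 after sham surgery. Only sham mouse 1 stood above the rest, by 0.21, and the difference between the groups was -0.095 (standard error 0.18, limma, adjusted p = 0.9997). For both enzymes the sham mice differed from each other, by 0.52 and 0.29, more than the groups did.

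Among the regulators of ornithine decarboxylase, Oaz1 was the one gene of the 7 whose groups did not overlap. Oaz1, which encodes antizyme, was at 6.80 and 6.66 in vasectomized mice and at 6.43 and 6.61 in sham mice. The closest mice of the 2 groups were thus vasectomy 2 and sham 2, only 0.05 apart. The difference of 0.21 had a 95% interval of -0.20 to 0.62 (limma, adjusted p = 0.9997), and the two-sided exact permutation test gave p = 0.3333, which is the smallest that 2 mice against 2 allow. No overlap in the same direction was seen in 12.5% of all genes and in the opposite direction in 12.0%, so that 1 of 7 (0 lower) is near this background. A probe set listed for both Oaz1 and its pseudogene Oaz1-ps differed by 0.055, and its groups overlapped. Azin1, which encodes antizyme inhibitor, a relative of ornithine decarboxylase that lacks its activity, was at 8.99 and 8.87 after vasectomy and at 8.60 and 9.02 after sham surgery. The 2 sham mice were the lowest and the highest of the 4, and the difference was 0.12 (standard error 0.20, limma, adjusted p = 0.9997). Oaz2, another antizyme gene, lay between 6.78 and 6.90 in the 4 arrays, a range of 0.12 that is narrower than that of 95.4% of genes. A dimmer second probe set of Oaz2 lay between 5.84 and 6.15 and differed by 0.09 where the brighter one differed by -0.01.

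The breakdown enzymes did not separate the groups either. Sat1, which encodes the spermidine/spermine acetyltransferase that starts breakdown and export, was at 8.35 and 8.37 after vasectomy and at 8.31 and 8.41 after sham surgery. All 4 mice were within 0.10 of each other, so that 97.1% of genes varied more, and both groups had a mean of 8.36. The 95% interval of the Sat1 difference was -0.38 to 0.38, that is 0.767-fold to 1.304-fold. Smox, which encodes spermine oxidase, was at 6.03 and 6.34 in vasectomized mice and at 5.97 and 6.22 in sham mice. Here the second mouse of each group was the higher one, the opposite of Odc1, and the difference was 0.09 (standard error 0.19, limma, adjusted p = 0.9997). Over the 7 genes the exact permutation test gave p from 0.3333 to 1, and the 95% intervals together ran from 0.605-fold (Odc1) to 1.54-fold (Oaz1). A difference of that size in the gene named was thus not excluded with 2 mice per group. The smallest difference that could be detected was not computed.

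The region upstream of 3 of these genes is shown because they mark the ends of the pattern: Odc1 varied most over the arrays, Sat1 varied least, and Oaz1 alone had groups that did not overlap. Windows from 250 bases before to 50 bases after the RefSeq start (GRCm38.p6) were found for 8 of the 10 genes, of which 5 were measured. No window was found for Srm and Azin1. The Odc1 window is chr12:17544623-17544922 (plus strand), the Oaz1 window chr10:80826406-80826705 (plus strand) and the Sat1 window chrX:155216400-155216699 (minus strand), each printed in the direction of transcription. Capitals mark matches on either strand to the GC box (GGGCGG), which Sp-family factors bind, to the E-box (CACGTG), which MYC and related factors bind, or to the TATA motif (TATAAA).
Odc1: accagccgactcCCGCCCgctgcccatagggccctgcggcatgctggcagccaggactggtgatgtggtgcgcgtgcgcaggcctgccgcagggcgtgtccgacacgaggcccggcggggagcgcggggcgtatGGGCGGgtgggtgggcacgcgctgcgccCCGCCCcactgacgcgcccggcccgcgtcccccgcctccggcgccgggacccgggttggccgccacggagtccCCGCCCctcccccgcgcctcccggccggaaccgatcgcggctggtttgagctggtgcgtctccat
Oaz1: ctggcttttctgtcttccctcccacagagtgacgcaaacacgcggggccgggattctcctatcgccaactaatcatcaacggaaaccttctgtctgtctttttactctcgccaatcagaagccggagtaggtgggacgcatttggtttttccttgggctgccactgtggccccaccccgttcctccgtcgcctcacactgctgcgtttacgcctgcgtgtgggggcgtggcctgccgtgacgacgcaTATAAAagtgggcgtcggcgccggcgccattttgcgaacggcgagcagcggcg
Sat1: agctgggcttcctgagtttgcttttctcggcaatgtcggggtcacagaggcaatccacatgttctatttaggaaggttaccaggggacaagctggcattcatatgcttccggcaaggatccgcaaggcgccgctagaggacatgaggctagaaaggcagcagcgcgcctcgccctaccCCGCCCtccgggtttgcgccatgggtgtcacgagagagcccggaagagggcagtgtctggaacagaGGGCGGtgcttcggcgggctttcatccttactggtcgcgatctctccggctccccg
The Odc1 window held 4 GC boxes in a sequence of 78.0% G and C, and the Sat1 window held 2 GC boxes at 60.3% G and C. The Oaz1 window, at 60.0% G and C, held 0 GC boxes and 1 TATA motif. The 8 genes had 10 windows, since Paox and Sms have 2 each. A GC box was found in 8 of these 10 windows (7 genes) and in 35.7% of all 32851 promoter windows. The E-box was in 1 of the 10 (Sms) and 7.15% of all windows, and the TATA motif in 1 of the 10 (Oaz1) and 13.6% of all. The GC box matches may overlap each other. These matches describe letters within the window and say nothing of which factor was bound.

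Across the arrays rather than the groups, sham mouse 1 was at the end of the order for all 7 genes. It was the highest array for Odc1 and Srm, the 2 enzymes of synthesis, and the lowest for Oaz1, Oaz2, Azin1, Sat1 and Smox, the regulators and the breakdown enzymes. Over all genes, sham 1 was the highest array for 22.4% and the lowest for 24.9%, together 47.4%. This pattern was noticed in the values and was given no test. The gap to the next array was 0.27 for Azin1, 0.23 for Odc1, 0.21 for Srm and 0.18 for Oaz1, but 0.06 for Smox, 0.04 for Sat1 and 0.01 for Oaz2, where it is no larger than the rounding of the deposited values. When the arrays were quantile-normalized again, sham 1 was still highest for Odc1 and Srm but lowest only for Oaz1, Azin1 and Smox. With the mean of probe sets, sham 1 was no longer lowest for Oaz2. Probe sets shared with a pseudogene did not follow the split by role. That of Sms, a synthesis gene, was lowest in sham 1 (5.69), and that of Oaz1 was not (10.49 in sham 1, 10.18 in sham 2).

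**Figure D2:**
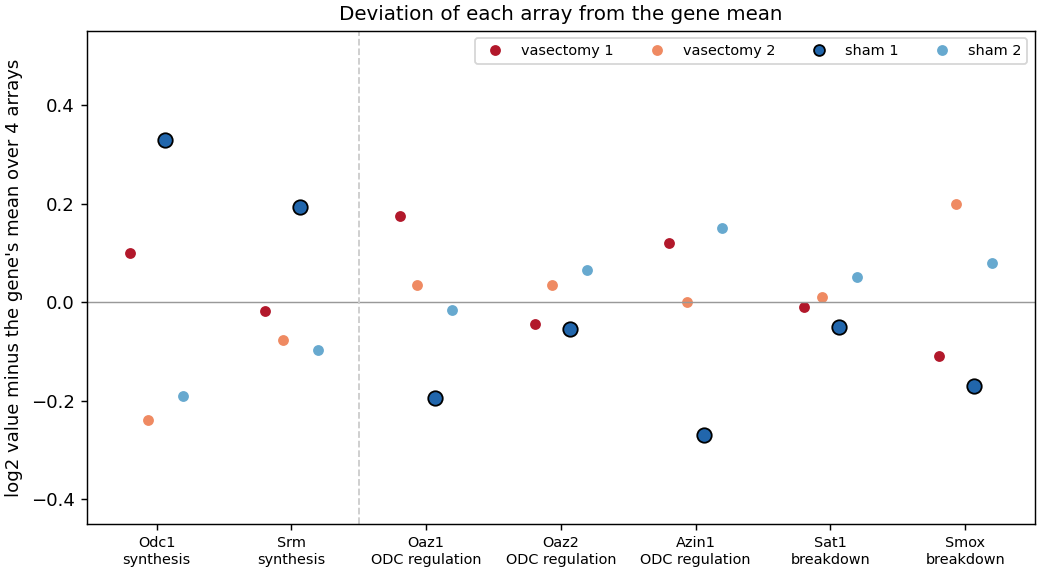
Log2 value of each array minus the mean of that gene over the 4 arrays (vertical axis) for the 7 polyamine genes, in color by array, with sham 1 outlined in black. Left of the dashed line, sham 1 is the highest array for Odc1 and Srm, and right of it the lowest for the 5 other genes, by only 0.01 for Oaz2.

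The direction of 4 of the 6 differences that were not 0 rested on sham mouse 1. Without it, the difference of Odc1 turned from -0.14 to 0.12, that of Srm to 0.05, that of Azin1 from 0.12 to -0.09 and that of Smox from 0.09 to -0.035, whereas Oaz1 stayed positive at 0.12. Without vasectomy mouse 2, Odc1 turned to 0.03 and Smox to -0.065, and Oaz1 was at 0.28. Oaz1 kept a positive difference without each array in turn, from 0.12 to 0.30, in comparisons that share arrays. In the first pair by mouse number, vasectomy minus sham was 0.37 for Oaz1, 0.39 for Azin1 and -0.23 for Odc1, and in the second pair it was 0.05, -0.15 and -0.05. The methods speak of 2 pairs of mice, but state neither what a pair shared nor that the numbers mark it.

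**Figure D3:**
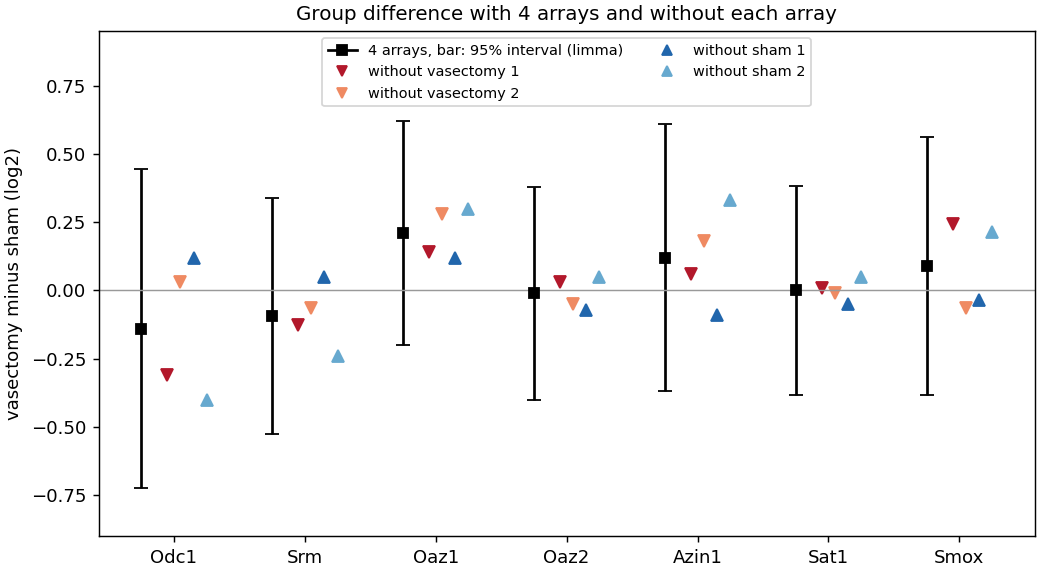
Vasectomy minus sham (log2, vertical axis) for each polyamine gene with all 4 arrays (black square, bar for the 95% interval from limma) and with 1 array left out (triangles, no interval). Every interval includes 0, and the triangles of each gene except Oaz1 lie on both sides of 0.

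The array labelled vasectomy 2 stood apart from the others in some of its tissue markers. Probasin (Pbsn), a main secretory protein of the mouse prostate, was abundant in each array, from 12.39 to 12.79. The mean over 9 measured luminal secretory markers of 10 was 8.31 in vasectomy 2 and 10.67 in vasectomy 1, against 10.50 to 10.77 in the sham arrays. Most of this drop came from Sbp, Spink5 and Msmb, singled out here after their values were seen, at 3.37, 4.96 and 9.34 in vasectomy 2 and at 11.45 or above in the other arrays. The median deviation of vasectomy 2 from the mean of each luminal marker was -0.58. Over 7 measured seminal vesicle markers of 8, the mean was 9.80 in vasectomy 2 and 5.66 in vasectomy 1, against 5.72 to 7.05 in the sham arrays, and 3 or 4 of the markers were below a background stand-in in each array but vasectomy 2, where none was. This stand-in was 4.63, the level that 95% of the genes for olfactory and vomeronasal receptors stayed at or below, and all 7 polyamine genes were above it in all 4 arrays. Correlations across genes were 0.970 to 0.976 between vasectomy 2 and the other arrays and 0.984 to 0.989 among those. Among the polyamine genes, vasectomy 2 had the highest value for 1 (Smox) and the lowest for 1 (Odc1), whereas over all genes the shares were 28.0% and 27.1%. In sham 1, the proliferation markers (4 of 5 measured) had a mean of 5.70, within the 5.35 to 5.84 of the other arrays, and the luminal markers had their highest mean. Between the groups, all 4 proliferation markers had a lower mean in vasectomized mice, with a median difference of -0.41. The groups did not overlap for 3 of the 4, against 12.0% of all genes in this direction, and 0 passed the adjusted threshold in limma. The means of the skeletal muscle markers (4 of 4 measured) were 6.36 in sham 1 and 5.67 to 6.02 in the other arrays. These markers did not go together: 2 were highest in sham 1, and 2, the brightest (Acta1 and Ckm), in vasectomy 2. Myh4, singled out here after its values were seen, was at 4.79 in sham 1. In the other arrays it was below the stand-in, at 2.88 to 3.72. The seminal vesicle mean of sham 1, at 7.05, was the next below that of vasectomy 2. The epididymis and vas deferens markers (6 of 8 measured) had a mean of 6.82 in vasectomy 2 and 5.98 in sham 1. In vasectomy 1 and sham 2 it was 4.94 and 4.89. Of these 6, 4 were highest in vasectomy 2, 1 in sham 1 and 1 in vasectomy 1. The macrophage markers (5 of 5 measured) were all highest in vasectomy 2, at a mean of 6.31 against 5.33 to 5.66 in the other arrays. The part of tissue composition in the values of the polyamine genes was not tested.

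The spread over the arrays, as the highest minus the lowest log2 value, was 0.10 for Sat1, 0.12 for Oaz2, 0.29 for Srm, 0.37 for Oaz1 and Smox, 0.42 for Azin1 and 0.57 for Odc1. The median of 0.37 is near the median of 0.39 over all genes, and none of the 7 reached 1, compared with 1044 of the 22180 genes. Among 52 other genes of polyamine metabolism, 47 were measured, and their median range was 0.38. Of these 47, 37 had a mean above the background stand-in, and the counts that follow include the dimmer ones. By limma, 0 of the 47 passed an adjusted p under 0.05 in either direction, 1 (Cav1, higher) had an unadjusted p under 0.05, and 0 did so by the methods' t-test, where the shares of all genes were 2.04% and 3.38%. The limma count at an unadjusted p under 0.05 was 0 without sham 1 or without vasectomy 2, 2 without sham 2 and 5 without vasectomy 1. Their means were higher in vasectomized mice for 20 genes and lower for 27, with a median difference of -0.03 against 0.00 over all genes, and 6 were higher and 6 lower with no overlap, near the background of 12.5% and 12.0%.

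**Figure D4:**
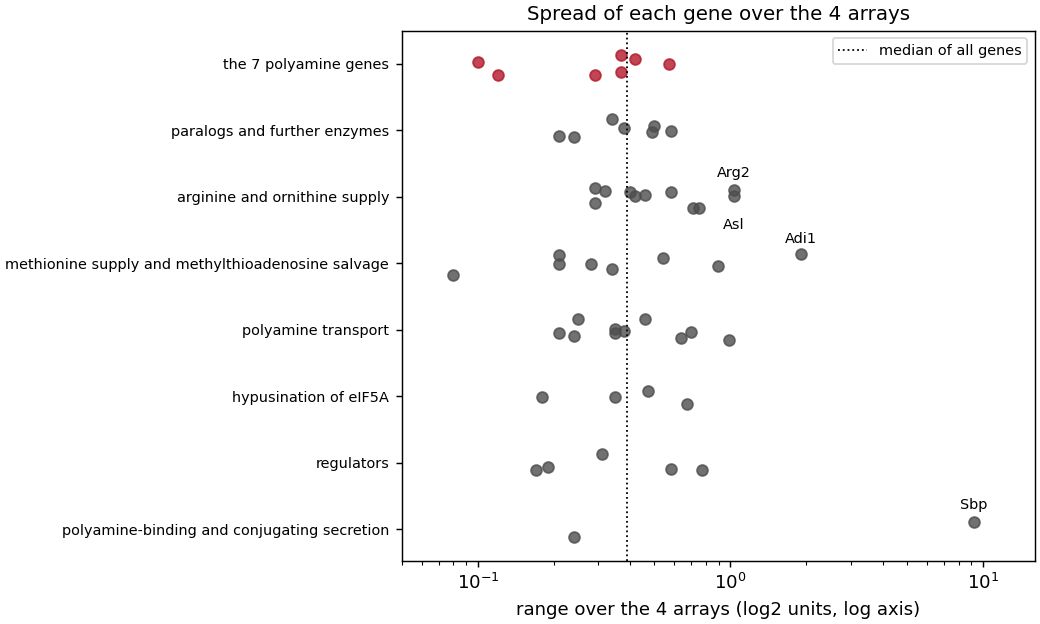
Range of each gene over the 4 arrays (horizontal axis, log2 units on a log scale) for the 7 polyamine genes in red and for 47 other genes of the pathway in gray, by role, with the median of all genes as a dotted line and vertical offsets within a row only to part the points. The 7 genes lie between 0.10 and 0.57, and Arg2, Asl, Adi1 and Sbp are the genes with a range of at least 1.

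The ranges of at least 1 were those of 4 genes, Sbp, Adi1, Arg2 and Asl. Sbp, which encodes a spermine-binding protein secreted by the rodent prostate, was at 12.37 and 3.37 in vasectomized mice and at 12.55 and 12.46 in sham mice. Its range of 9.18 was the widest of all 22180 genes and came from vasectomy 2 alone, where its value was below the background stand-in. Sbp and Tgm4 are also on the list of luminal markers. In that array Odc1, at 7.99, was 0.05 below the next array and Sat1, at 8.37, was within the range of the others. Tgm4, which encodes the prostate transglutaminase, an enzyme class that can attach polyamines to proteins, was between 12.89 and 13.13 in the 4 arrays.

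Arg2, the mitochondrial arginase that makes ornithine, the substrate of ornithine decarboxylase, was at 8.35 and 7.57 after vasectomy and at 8.60 and 8.26 after sham surgery. Like Sbp, it was lowest in vasectomy 2 and highest in sham 1, and its groups overlapped (difference -0.47, standard error 0.29, limma, adjusted p = 0.9997). Asl, which encodes argininosuccinate lyase of arginine synthesis, followed the same order, from 6.95 in vasectomy 2 to 7.98 in sham 1. Odc1 had this order too, from 7.99 in vasectomy 2 to 8.56 in sham 1, a likeness that was not tested. Ass1, the synthetase before Asl, was at 5.48 and 5.40 against 5.86 and 5.64, lower in both vasectomized mice (difference -0.31, standard error 0.17, limma, adjusted p = 0.9997). Over the 11 genes of arginine and ornithine supply, 5 had a higher and 6 a lower mean, with a median of -0.09.

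Methionine supply and salvage of methylthioadenosine, the by-product of spermidine and spermine synthesis, was covered by 8 measured genes of 9. All 8 had a lower mean in vasectomized mice, as did 11038 of all 22180 genes. The differences ran from -0.02 to -0.83 with a median of only -0.08, and 0 of the 8 passed the adjusted threshold in limma. Of these 8, 7 had a mean above the background stand-in. The largest difference was that of Adi1, which encodes a dioxygenase of the salvage route, at 8.10 and 7.0 after vasectomy and at 8.90 and 7.85 after sham surgery. Adi1 was again lowest in vasectomy 2 and highest in sham 1 (difference -0.83, standard error 0.47, limma, adjusted p = 0.9997). Its mice differed by 1.10 within the vasectomy group and by 1.05 within the sham group, more than the groups did. In each group mouse 1 was the higher one. Vasectomy minus sham was -0.80 for the mice numbered 1 and -0.85 for those numbered 2. The methods do not state that these numbers mark pairs. With the mouse number as a replicate block, 0 of all 22180 genes passed the adjusted threshold. Sham 1 was the highest array for 6 of these 8 genes, against 22.4% of all genes. Its lead over the next array was 0.80 for Adi1 and only 0.01 to 0.26 for the rest of these 6.

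Cav1, which encodes the coat protein of caveolae, was at 7.01 and 7.29 in vasectomized mice and at 6.74 and 6.59 in sham mice, the only pathway gene past an unadjusted p under 0.05 (difference 0.485, standard error 0.18, limma, adjusted p = 0.9997). Caveolae are abundant in smooth muscle, and the mean over 8 smooth muscle markers of 8 was 9.84 in vasectomy 1 and 10.18 in vasectomy 2, against 9.71 and 9.59 in the sham arrays, with all 8 highest in vasectomy 2, as Cav1 was. Endothelial cells and adipocytes also carry caveolae. Their marker means, over 4 of 4 and 5 of 5 genes, were 6.05 and 4.81 in vasectomy 1, 6.01 and 6.17 in vasectomy 2, 5.96 and 4.67 in sham 1, and 5.64 and 4.63 in sham 2. The part of these cells in the Cav1 values was not tested. Eif5a2, an isoform of the translation factor that spermidine modifies with hypusine, was at 4.90 and 5.39 against 4.72 and 4.89 (difference 0.34, standard error 0.22, limma, adjusted p = 0.9997). All 4 genes of this hypusine step had a higher mean in vasectomized mice, as did 10845 of all 22180 genes. Their differences ran from 0.025 to 0.34, with a median of 0.05. Of the 10 measured genes of polyamine transport, 4 had a higher and 6 a lower mean, of 5 measured regulators 2 and 3, and of 7 measured paralogs and further enzymes 4 and 3.

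The genes with the most similar course over the 4 arrays were found for Odc1 and Azin1, which had the widest ranges, by the root mean square difference after each gene was centered on its mean. For Odc1 they were Nrp2 (0.015), Isoc1 (0.015) and Khk (0.019), and 81 genes were within 0.05. Isoc1 was at 7.79 and 7.42 after vasectomy and at 8.02 and 7.51 after sham surgery, which is the order of Odc1. For Azin1 they were Olfr1260 (0.011), whose mean was below the background stand-in, Wdr62 (0.013) and Kri1 (0.015), and 135 genes were within 0.05. With 4 arrays and this many genes, such likeness is a description only.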

How the data were processed

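Log2 values of 4 arrays were deposited by the authors, who used Affymetrix Expression Console 1.3.1 with RMA (background subtraction, quantile normalization, probe summary). The log base is not stated and was taken as log2, and a shift shared by most genes of an array would not be visible. The array is called a human version in the methods, but its annotation is of mouse genes. The annotation gave a single symbol to 23521 of the 41345 probe sets, more than 1 symbol to 1820 and none to 16004, and the brightest of those for a symbol was used (22180 genes). No source used here states the genome build of the annotation.

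The test was that of limma (version 3.58.1, R 4.3.3) on 2 against 2 arrays. P-values were adjusted over the 22180 genes by the Benjamini-Hochberg method, and 0.05 was the threshold. The fit was also run on simulated data, with changes larger than any seen in the 7 genes and with no outlying array. That run therefore says nothing of differences as small as theirs. With 1 array per mouse, p-values refer to the spread between mice. Limma draws the variance of each gene towards a value shared by all genes. Its standard errors, intervals and p-values thus also reflect the spread of other genes. For Sat1, the SDs were 0.01 after vasectomy and 0.07 after sham surgery, and the limma standard error was 0.16. The number of arrays limits the precision. The methods' t-test, a replicate block, median centering, a second quantile normalization, leaving out dim genes, averaging probe sets, an intensity trend, array weights and omission of each array were alternatives. Genes named beyond the 7 had a range of at least 1, or a difference of at least 0.3 with no overlap, or were the nearest in course, and of each marker list the 2 with the highest mean could be named. The genes and lists were chosen with earlier results of these data known.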

Additional observations from a re-analysis of the deposited data

How the results depend on the processing

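Of 77 values of the 7 genes under other settings, 68 kept their direction or had none, and 0 passed the adjusted threshold in limma. Leaving out dim genes, array weights, the replicate block and median centering left each difference as it was. These settings therefore say nothing of how firm a direction is. Of the 9 values that turned, 8 came from leaving out an array. With the mean of both probe sets, the Oaz2 difference turned from -0.01 to 0.04. Leaving out each array in turn, the difference ran from -0.40 to 0.12 for Odc1, from -0.24 to 0.05 for Srm, from -0.07 to 0.05 for Oaz2, from -0.09 to 0.33 for Azin1 and from -0.065 to 0.245 for Smox. The number of polyamine genes whose groups did not overlap ran from 1 to 7 (7 without sham 2, where 31.1% of all genes were higher and 28.8% lower with no overlap, and 5 without sham 1, where the shares were 27.7% and 30.3%), and with 1 array against 2 this is likelier by construction. Over all genes, 0 passed the adjusted threshold under any of the 13 alternatives, with 453 at an unadjusted p under 0.05 in limma, 750 by the methods' t-test, 821 with the mouse number as a replicate block, 1185 without vasectomy 1 and 300 to 383 without each of the other arrays. Deviations of same-numbered mice correlated at 0.191 across genes, which are not independent, so 2 pairs leave it unsettled whether the numbers pair the mice, and the block called 0 of the 7 genes.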

Other observations

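Probe sets shared with a pseudogene were assigned to no gene. The one listed for Oaz1 and Oaz1-ps had values of 10.55 and 10.23 after vasectomy, with 10.49 and 10.18 after sham surgery, so that the first mouse of each group was the higher one and the groups overlapped. This order differs from that of the probe set listed for Oaz1 alone, whose groups did not overlap and whose lowest array was sham 1. The one listed for Sms and Sms-ps had values of 6.06 and 6.04 after vasectomy, with 5.69 and 6.33 after sham surgery. There sham 1 was lowest and sham 2 highest, the same ends as for Azin1.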
